A study of Homo sapiens with 4 samples.

Results

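A673 is an established Ewing sarcoma cell line, and the comparison described here sets its 2 knockdown libraries against its 2 control libraries. These are 4 of the 4 libraries of the series, chosen by their titles. The library siSMPD1 came from cells transfected with siRNA against SMPD1, and siGPR64 from cells transfected with siRNA against GPR64. Their partners, control_SMPD1 and control_GPR64, came from cells given scrambled siRNA, and the titles assign 1 control to each knockdown. All cells carried no other stated alteration, were grown in Iscove's medium with fetal bovine serum, insulin and beta-mercaptoethanol, and received Lipofectamine RNAiMAX for 48 hours. RNA was depleted of ribosomal RNA and sequenced as paired ends. With 1 library per group, a pair has no replicate check. The question addressed is which genes differed in the same direction from their own control in both knockdowns, although the siRNAs have different targets. Nothing in the labels says that the libraries came from separate cultures. The p-values below thus measure only the spread between these libraries, pooled in large part across genes. In the main fit that spread is the disagreement between the 2 pairs, whose siRNAs have different targets. It is not the spread of like libraries. All cells were of 1 line.

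The product of SMPD1, acid sphingomyelinase, works in lysosomes and splits sphingomyelin to give ceramide. GPR64 is a surface receptor of the adhesion G protein-coupled family. An siRNA guides Argonaute proteins to a matching mRNA, which is then degraded, and a scrambled siRNA serves as the control for transfection and for loading of this machinery. Many genes named below belong to the programme of ATF4, a transcription factor whose mRNA is translated when the initiation factor eIF2 alpha is phosphorylated under amino acid shortage or other stress. With C/EBP partners, ATF4 binds composite C/EBP-ATF response elements in genes for amino acid synthesis, amino acid transport and tRNA charging.

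The pairs differed in depth. Gene counts summed to 19614913 (control_SMPD1) and 18849264 (siSMPD1) against 2882854 (control_GPR64) and 2534861 (siGPR64), so that the first pair held 7.1 times the reads of the second. A count of 3, used as the floor for a gene with no read, stood for 0.156, 0.159, 1.03 and 1.18 CPM (counts scaled to a common library size) in the same order. The controls also stood apart from each other: 714 of 12386 genes tested (5.76%) were at least 2-fold higher, and 1012 (8.17%) at least 2-fold lower, in control_GPR64 than in control_SMPD1. Depth, pair and any difference between these controls cannot be told apart. The labels give the tissue as muscle, but none of 6 defining skeletal muscle markers (MYOD1, MYOG, DES, ACTA1, CKM and TTN) averaged 1 CPM, and their summed level was 0 to 0.364 CPM across libraries. In a wider list of 20 muscle genes PAX3, TNNT1 and MYH3 were measured, and the measured and unmeasured members summed to 58.0, 63.0, 95.2 and 81.5 CPM. Of 8 Ewing sarcoma markers, 7 were measured and summed to 3254 to 4713 CPM, while CD99 had no read in any library. Most of each sum was the cyclin CCND1, at 2188 to 3636 CPM. PRKCB stood at 411 to 563 CPM, and NR0B1, NKX2-2, STEAP1, LIPI and BCL11B each within 70.1 to 177 CPM. The defining immune (PTPRC, CD3E, CD14 and LYZ), epithelial (EPCAM, CDH1, KRT5 and KRT14) and endothelial (PECAM1, CDH5 and VWF) markers each summed to at most 1.57 CPM in any library, and of 4 fibroblast markers only PDGFRB averaged 1 CPM. Wider lists held measured members: 4 of 14 epithelial genes (KRT8, KRT18, OCLN and TP63; list sums of 104 to 195 CPM) and 1 of 17 immune genes (CD68; list sums of 5.14 to 13.6 CPM). Their part in the results was not tested.

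Each siRNA was first checked at its target. SMPD1 stood at 414 CPM in control_SMPD1 and 91.7 in siSMPD1, and at 52.8 in control_GPR64 and 232 in siGPR64. It was thus 4.52-fold lower (95% counting interval 4.29 to 4.76) in its own knockdown and 4.38-fold higher (3.68 to 5.28) in the GPR64 knockdown. GPR64 stood at 388, 539, 109 and 50.1 CPM in the same order, 1.39-fold higher (1.35 to 1.43) in the SMPD1 knockdown and 2.16-fold lower (1.76 to 2.68) in its own. Each target was lower in its own knockdown and higher in the other, so neither target belongs to the shared response. Between the controls, SMPD1 had a log2 ratio of -2.97 (control_GPR64 over control_SMPD1), so SMPD1 in siGPR64 was nearer to control_SMPD1 than its own control was, a difference that the labels do not account for. GPR64 was lower in the library labelled siGPR64, and no other value checks the labels of that pair. Every direction given for it follows those labels, and with them exchanged the shared and opposite genes would change places. The intervals are exact Clopper-Pearson intervals, taken on how a gene's reads divide between the libraries compared. They cover counting error only.

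Few genes were shared. The lower ones included ATF4-programme genes of amino acid metabolism and stress, and the higher ones included adhesion, neural and signalling genes with low counts. A gene was counted as higher or lower when it differed at least 2-fold from the own control with a counting interval that left out equality. In the SMPD1 pair, 260 genes (2.1% of those tested) were higher and 126 (1.02%) lower. In the GPR64 pair, 813 (6.56%) were higher and 608 (4.91%) lower. In both pairs, 43 genes (0.347%) were higher, 43 (0.347%) were lower and 32 (0.258%) went opposite ways. The own-control ratios of the pairs share no library. Of the 126 genes lower in the SMPD1 pair, 34.1% were also lower in the GPR64 pair, where 4.91% of all genes were, and 8.73% were higher there, where 6.56% of all genes were. Of the 260 genes higher in the SMPD1 pair, 16.5% were also higher in the GPR64 pair and 8.08% were lower. The shares of all genes there were 6.56% and 4.91%. Opposite calls were thus above the shares of all genes too. Those shares are not matched for abundance, and genes called in both pairs were mostly of low abundance. The part of abundance in the overlap was not tested. Seen from the GPR64 pair, the shared genes made up 5.29% of its 813 higher genes and 7.07% of its 608 lower genes. Across all 12386 genes, the log2 ratios of the pairs had a Pearson r of 0.14 and a Spearman rho of 0.11, and 53.8% had the same sign. Among the 2287 genes that averaged at least 100 CPM in each pair, r was 0.11 and rho 0.12. These are correlations across genes, which are not independent replicates, and their points share library depth and base composition.

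**Figure D1:**
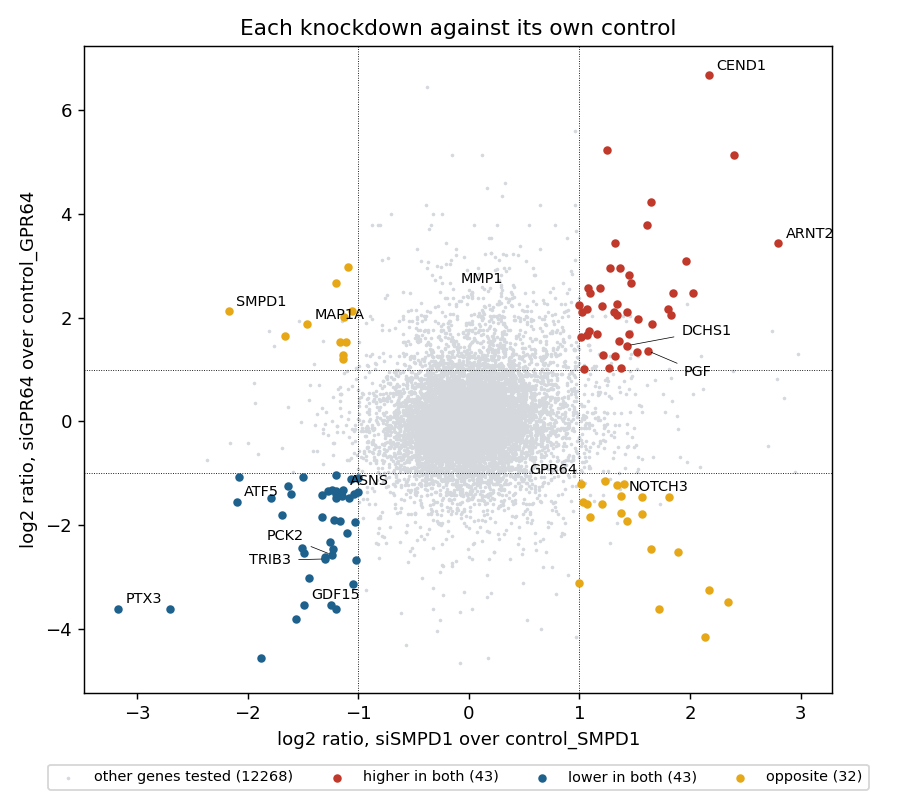
Log2 ratio of each knockdown to its own control, the SMPD1 pair on the x axis and the GPR64 pair on the y axis, with 1 point per gene tested (12386 genes). Red points mark the 43 genes higher in both, blue points the 43 lower in both and yellow points the 32 opposite genes; dotted lines stand at log2 ratios of 1 and -1, and the grey cloud is wider along the y axis (SD 0.79) than along the x axis (SD 0.41).

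The shared genes were mostly of low abundance. Their mean over the libraries had a median of 6.68 CPM for the higher genes and 8.86 CPM for the lower ones, against 38.5 CPM for all genes tested. Of the 43 higher genes, 21 had at most 5 counts in some library and 4 had a library at 0. Of the 43 lower genes, 10 had at most 5 counts in some library and 4 had a library at 0. The filter took a mean of at least 1 CPM over each pair, so a gene near 0 on 1 side entered through the other. FAIM2, ARNT2, OPCML and GAD2 were below 1 CPM in both controls and entered through the knockdown libraries alone. Their calls thus follow in part from the filter. The differences were mostly larger in the shallower pair, for 37 higher and 36 lower genes. Median log2 ratios were 1.36 in the SMPD1 pair and 2.16 in the GPR64 pair for the higher genes, and -1.25 and -1.85 for the lower genes. At the edge of the rule, CALHM2 (1.04 in the SMPD1 pair and 1.01 in the GPR64 pair) and GDPD1 (-1.0 and -1.35) lay just inside, and PTPRU (1.0 and 1.12) and PSAT1 (-0.98 and -1.06) just outside. With a count of 0 set to 3 counts, 43 genes were still higher and 40 still lower in both.

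Other choices of control gave other counts. When both knockdowns are set against 1 control, the ratios share that library, so a deviation of that library alone can place a gene past both, and the counts are no measure of a shared response. Against control_SMPD1 alone, 78 genes were higher and 25 lower in both knockdowns. Against control_GPR64 alone, 503 were higher and 271 lower. With each knockdown set against the partner of the other, 45 genes were higher and 31 lower, of which 15 and 12 were the same genes as with the own controls. In that crossed form 438 genes went opposite ways. A stricter rule asked each knockdown to be at least 2-fold past each control: 15 genes (0.121%) were higher and 12 (0.0969%) lower in all 4 ratios. These are by definition the same 15 and 12 genes, because the 4 ratios are the own-control and the crossed ones. The stricter rule is thus no second check. Without a fold limit, 13.7% of genes tested had both knockdown levels above both control levels and 13.7% had both below. Among the shared genes the groups did not overlap for 39 of 43 that were higher and 31 of 43 that were lower. The rule that picked these genes already sets each knockdown past its own control. Their counts thus follow in part from that choice and cannot be weighed against the 13.7%.

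Regulators of the ATF4 programme were among the genes lower in both knockdowns. ATF5, a bZIP transcription factor of that programme, stood at 670.5 CPM in control_SMPD1 and 156 in siSMPD1, and at 1089 in control_GPR64 and 371 in siGPR64. Both knockdowns lay below both controls. ATF5 was 4.29-fold lower (4.12 to 4.47) in the SMPD1 pair and 2.94-fold lower (2.73 to 3.16) in the GPR64 pair. TRIB3, a pseudokinase that ATF4 induces and that restrains it in turn, stood at 225, 91.5, 671 and 107 CPM in the same order. It was 2.46-fold lower (2.33 to 2.6) and 6.29-fold lower (5.55 to 7.18), and it passed the rule in all 4 ratios. ATF3, another stress-induced bZIP factor, stood at 21.1, 9.86, 82.2 and 18.4 CPM, with folds of 2.14 (1.8 to 2.56) and 4.43 (3.26 to 6.24). For ATF3 the knockdowns also lay below the controls, but siGPR64 was near control_SMPD1. ATF4 itself stood at 415, 322, 571 and 415 CPM, with log2 ratios of -0.36 and -0.46, and did not pass the rule in either pair.

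Enzymes of amino acid and carbon metabolism were lower beside them. ASNS, asparagine synthetase, stood at 407 CPM in control_SMPD1 and 185 in siSMPD1, and at 810.1 in control_GPR64 and 323 in siGPR64. It was 2.2-fold lower (2.12 to 2.29) and 2.51-fold lower (2.32 to 2.72). CTH, cystathionine gamma-lyase of the pathway that makes cysteine from methionine, stood at 64.2, 26.9, 195 and 38.8 CPM. Its folds were 2.39 (2.15 to 2.65) and 5.01 (4.05 to 6.29). PCK2, the mitochondrial form of phosphoenolpyruvate carboxykinase, stood at 133, 56.3, 224 and 37.6 CPM and passed the rule in all 4 ratios. PCK2 was 2.36-fold lower (2.2 to 2.54) and 5.92-fold lower (4.79 to 7.45). In all 3 enzymes both knockdowns lay below both controls, and control_GPR64 was the highest library.

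**Figure D2:**
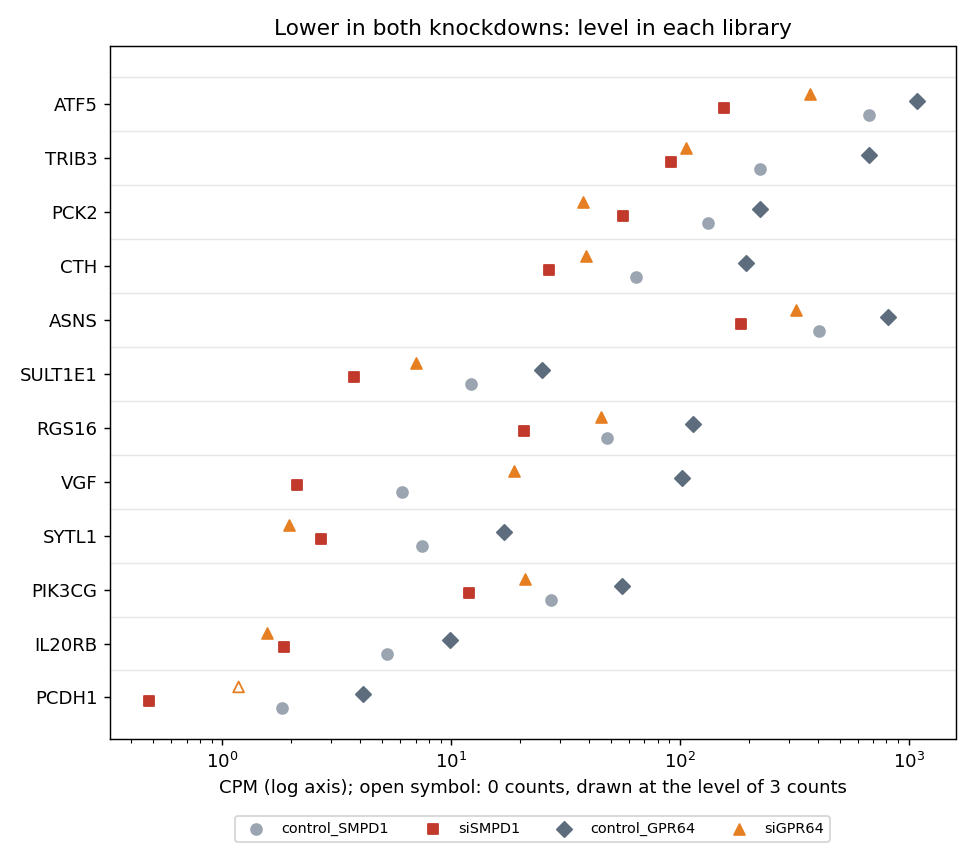
CPM of 12 genes lower in both knockdowns (log axis), 1 row per gene and 1 symbol per library: grey circle control_SMPD1, red square siSMPD1, dark diamond control_GPR64 and orange triangle siGPR64. The squares lie left of the circles and the triangles left of the diamonds in every row; the open symbol marks PCDH1 in siGPR64, which had 0 counts and is drawn at the level of 3 counts.

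Of 41 ATF4 targets listed, 40 were measured. Their median log2 ratio was -0.65 in the SMPD1 pair and -0.86 in the GPR64 pair, against -0.01 and 0.02 over all genes tested. By the rule of size, 9 were lower in the SMPD1 pair (1.02% of all genes were), 18 in the GPR64 pair (4.91% of all genes) and 7 in both (0.347% of all genes), and none was higher in either. The 7 were ATF5, TRIB3, PCK2, CTH, ASNS, VLDLR and GDF15. Below 0 in both pairs were 36 of the 40 (90%), where 26.6% of all genes were. The list was written with earlier results of these data known, so its direction is not independent evidence. Among the 4 members whose signs differed, the mTORC1 inhibitor DDIT4 stood at 104, 158, 212 and 38 CPM, and the mitochondrial folate enzyme ALDH1L2 at 93.5, 36.4, 27.7 and 45.4 CPM. ALDH18A1 and NUPR1 were the others. Transporters followed the same side: SLC7A11, the cystine carrier, stood at 371, 177, 285 and 257 CPM, and SLC7A1, a cationic amino acid carrier, at 348, 201, 459 and 137 CPM. SLC7A11 passed the rule in the SMPD1 pair only, and SLC7A1 in the GPR64 pair only. The difference between the pairs was not tested.

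The ATF4 targets also differed between the controls. Their median log2 ratio of control_GPR64 to control_SMPD1 was 0.67. With the controls exchanged, their median was -1.27 for siSMPD1 over control_GPR64 and -0.42 for siGPR64 over control_SMPD1, so the list lay below 0 with either control. Single members did not all do so. GDF15, a secreted stress cytokine, stood at 3.02 CPM in control_SMPD1 and 1.06 in siSMPD1, and at 69.9 in control_GPR64 and 5.88 in siGPR64. It was 2.8-fold lower (1.69 to 5) and 11.6-fold lower (7.04 to 21.6) than its own controls, yet siGPR64 lay above control_SMPD1. VLDLR, a lipoprotein receptor, stood at 28, 11.1, 28.4 and 10.6 CPM, with the controls level, the knockdowns level and all 4 ratios past the rule.

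**Figure D3:**
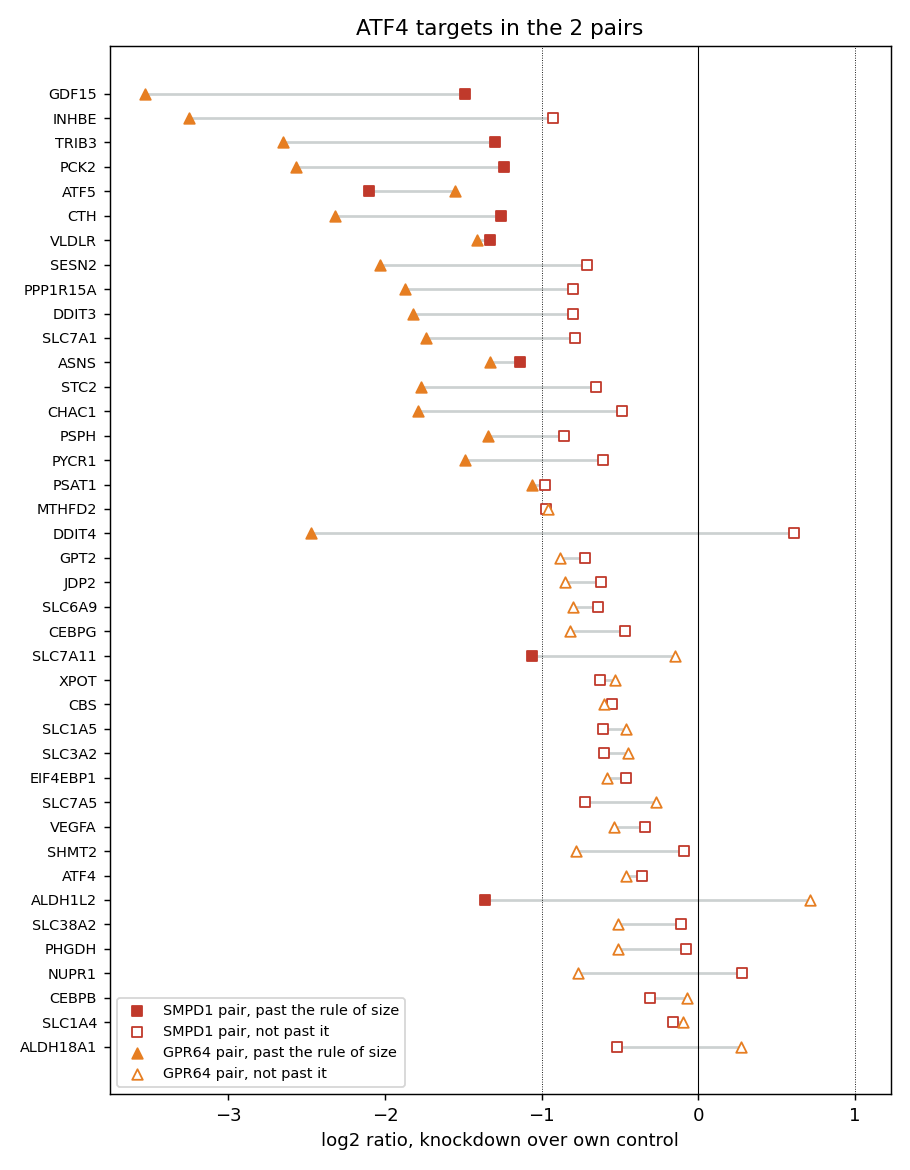
Log2 ratio to the own control (x axis) of the 40 ATF4 targets measured, 1 row per gene, with red squares for the SMPD1 pair and orange triangles for the GPR64 pair; filled symbols are past the rule of size and dotted lines stand at -1 and 1. Both symbols lie left of 0 in 36 rows, and 7 rows have both symbols filled.

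The aminoacyl-tRNA synthetases, which charge tRNAs with amino acids, lay on the same side with smaller differences. All 20 cytosolic enzymes listed were measured, with medians of -0.48 in the SMPD1 pair and -0.47 in the GPR64 pair. None passed the rule in either pair. Below 0 in both were 13 (65%, against 26.6% of all genes), and 1 was above 0 in both (5%, against 27.1%). GARS, the glycyl enzyme, stood at 763 CPM in control_SMPD1 and 412 in siSMPD1, and at 1023 in control_GPR64 and 589 in siGPR64. SARS, the seryl enzyme, stood at 503, 326, 844 and 427 CPM. In both genes the knockdowns lay below both controls. With the controls exchanged the medians of the list were -0.78 and -0.24.

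Outside the ATF4 list, the lower genes had mixed roles. PMAIP1, which encodes the pro-apoptotic BH3 protein NOXA, stood at 132 CPM in control_SMPD1 and 62.9 in siSMPD1, and at 148 in control_GPR64 and 69.3 in siGPR64. The controls were close to each other and so were the knockdowns, with folds of 2.1 (1.96 to 2.25) and 2.14 (1.79 to 2.56). SLC25A24, a mitochondrial carrier of ATP-Mg and phosphate, stood at 122, 43.1, 88.7 and 42.3 CPM and passed the rule in all 4 ratios. It was 2.83-fold lower (2.61 to 3.07) and 2.09-fold lower (1.67 to 2.65). WDR44, a Rab11-binding protein, stood at 29.6, 14.8, 30.1 and 14.1 CPM, with folds of 2 (1.73 to 2.32) and 2.12 (1.44 to 3.24). In each of these genes both knockdowns lay below both controls.

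Signalling genes among the lower ones included RGS16, a GTPase-activating protein for G alpha subunits, and PIK3CG, the catalytic subunit of PI3-kinase gamma. RGS16 stood at 47.8 CPM in control_SMPD1 and 20.9 in siSMPD1, and at 114 in control_GPR64 and 45 in siGPR64. PIK3CG stood at 27.5, 12, 55.8 and 21.2 CPM. Their folds were 2.29 (2.03 to 2.58) and 2.53 (2.04 to 3.16) for RGS16, and 2.29 (1.96 to 2.69) and 2.63 (1.93 to 3.66) for PIK3CG. For both genes control_GPR64 was the highest library and siGPR64 lay below control_SMPD1. IL20RB, a receptor subunit for IL-20 family cytokines, stood at 5.26, 1.85, 9.93 and 1.57 CPM and passed the rule in all 4 ratios. SYTL1, a synaptotagmin-like effector of Rab27, stood at 7.44, 2.7, 17.1 and 1.96 CPM and did so too.

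Some secreted proteins were lower as well. VGF, a neuropeptide precursor, stood at 6.09 CPM in control_SMPD1 and 2.12 in siSMPD1, and at 102 in control_GPR64 and 18.8 in siGPR64. Its folds were 2.85 (1.99 to 4.22) and 5.39 (3.99 to 7.53), and siGPR64 lay above control_SMPD1. PTX3, a secreted pattern recognition protein, stood at 10.7, 1.17, 2.06 and 0 CPM. It was 9.02-fold lower (5.91 to 15) in the SMPD1 pair. In the GPR64 pair it went from 6 counts to 0, which at the floor of 3 counts is at least 1.75-fold lower, short of the 2-fold rule, so that its call as lower in both ends at that floor. PTX3 was 1 of 15 NF-kB targets and chemokines measured, whose medians were -0.32 and -0.53. Of the 15, 9 were below 0 in both pairs (60%, against 26.6% of all genes). TSLP, an epithelial-type cytokine, stood at 1.93, 0.636, 13.4 and 0.783 CPM. Control_GPR64 was far above the other libraries for VGF and TSLP.

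Immediate-early genes, which growth factor signalling induces within minutes, had no common direction, with medians of -0.08 and -0.05 over 25 measured. ATF3 and EGR3 were the members lower in both. EGR3 stood at 2.08 CPM in control_SMPD1 and 1.01 in siSMPD1, and at 24.3 in control_GPR64 and 6.27 in siGPR64. Its log2 ratio in the SMPD1 pair was -1.0 with library totals in place of TMM factors and -0.98 with a prior of 2 counts, both just short of the rule. ARRDC4, an alpha-arrestin, stood at 5.83, 2.81, 63 and 7.05 CPM and was the member of the hypoxia and glycolysis list lower in both. For EGR3 and ARRDC4 siGPR64 lay above control_SMPD1, so the groups overlapped. SULT1E1, which sulphates oestrogens, stood at 12.2, 3.76, 25 and 7.05 CPM, and PCDH1, a protocadherin, at 1.82, 0.477, 4.11 and 0 CPM. SULT1E1 was 3.22-fold lower (2.47 to 4.28) and 3.48-fold lower (2.1 to 6.31). PCDH1 was 3.67-fold lower (1.8 to 9.04) in the SMPD1 pair and, at the floor of 3 counts, at least 3.5-fold lower in the GPR64 pair.

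Promoter windows of the genes lower in both were read for the core of the C/EBP-ATF response element, because several are known ATF4 targets. Windows came from RefSeq (GRCh38.p14) and ran from 250 bases before to 50 after each gene start. Of the 43 lower genes 36 had a window. TGATGNAA, searched on both strands, was in 7 of the 36 (19.4%), in 156 of the 9750 genes tested with a window (1.6%) and in 1003 of all 27305 windows (3.67%). The stretches below hold the 7 matches with 20 bases on either side, each read 5′ to 3′ in the direction of its gene. Capitals mark the match, which for IPW, SULT1E1 and SYTL1 is the motif read on the other strand.
ASNS (chr7:97872449-97872496, minus strand): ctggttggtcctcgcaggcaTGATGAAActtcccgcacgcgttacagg
ATF3 (chr1:212565196-212565243, plus strand): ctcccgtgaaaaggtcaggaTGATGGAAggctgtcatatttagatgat
IL20RB (chr3:136957887-136957934, plus strand): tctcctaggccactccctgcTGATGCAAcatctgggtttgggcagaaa
ANGPTL1 (chr1:178871111-178871158, minus strand): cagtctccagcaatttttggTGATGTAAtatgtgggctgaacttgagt
IPW (chr15:25116448-25116495, plus strand): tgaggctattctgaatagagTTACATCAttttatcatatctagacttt
SULT1E1 (chr4:69860214-69860261, minus strand): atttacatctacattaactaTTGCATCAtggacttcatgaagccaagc
SYTL1 (chr1:27341956-27342003, plus strand): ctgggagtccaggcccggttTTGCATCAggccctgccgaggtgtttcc
The matches began at positions -191 to -46 from the start. Of the 7 lower genes on the ATF4 list, only ASNS held a match in this window, and 6 of the 29 other lower genes with a window did (20.7%). The 6 include ATF3, which is not on that list but is described above with regulators of the ATF4 programme. This split thus depends on how the list was drawn. The E-box CACGTG was in 2 of the 36 windows (5.56%, against 10.4% of genes tested) and the cAMP response element TGACGTCA in 1 (2.78%, against 3.44%), both palindromes, which read alike on either strand. In these windows no match overlapped another motif. Median GC content was 63.8% for the lower genes (31.3% to 83.7%) and 65.3% for genes tested (27.7% to 94.0%). The median number of CG dinucleotides per window was 21 for the lower genes and 27 for genes tested. For the 29 other lower genes it was 16. Whether base composition bears on the motif shares was not tested. A match describes these letters alone. Of the 43 higher genes only 26 had a window, and of the 40 ATF4 targets only 30, so the same counts over those sets are void for missing members.

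Among the genes higher in both knockdowns, several encode adhesion or secreted proteins. DCHS1, a giant cadherin of the Fat-Dachsous pathway, stood at 66.9 CPM in control_SMPD1 and 180.4 in siSMPD1, and at 39.7 in control_GPR64 and 109 in siGPR64. It was 2.69-fold higher (2.53 to 2.88) and 2.74-fold higher (2.21 to 3.45). MCAM, an immunoglobulin-family adhesion molecule, stood at 17.9, 56.5, 4.8 and 18 CPM, with folds of 3.16 (2.8 to 3.59) and 3.66 (2.03 to 7.4). For DCHS1 both knockdowns lay above both controls, whereas for MCAM siGPR64 was level with control_SMPD1. NTM, a cell-surface protein of the IgLON family, stood at 14.2, 35.2, 8.91 and 38.8 CPM and passed the rule in all 4 ratios. It was 2.49-fold higher (2.16 to 2.88) and 4.29-fold higher (2.8 to 6.99). OPCML, of the same family, stood at 0.677, 2.7, 0.343 and 4.31 CPM, and the cadherin CDH6 at 3.02, 8.8, 2.06 and 8.62 CPM. Both passed the rule in all 4 ratios on few counts in the GPR64 pair.

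Of secreted factors, PGF and FRZB were higher in both. PGF, placental growth factor and a ligand of VEGF receptor 1, stood at 20.2 CPM in control_SMPD1 and 62.3 in siSMPD1, and at 14.7 in control_GPR64 and 38 in siGPR64. Its folds were 3.07 (2.74 to 3.46) and 2.56 (1.78 to 3.79), and the knockdowns did not overlap the controls. FRZB, a secreted antagonist of Wnt ligands, stood at 12.9, 44.9, 2.74 and 12.9 CPM, so that siGPR64 equalled control_SMPD1 to 3 digits. FRZB was 3.47-fold higher (3.01 to 4.02) and 4.48-fold higher (2.14 to 11.8). PGF was the member of the invasion and angiogenesis list higher in both, where the medians of 15 measured were 0.15 and 1.21. Over members with a mean of at least 5 CPM these medians were -0.14 and 0.54. MMP1, a collagenase of that list, stood at 2609, 2375, 116 and 689 CPM and was higher in the GPR64 pair alone (5.91-fold, 5.26 to 6.66).

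Among neural genes, those higher in both knockdowns had low levels. CEND1, which promotes cell cycle exit of neural precursors, stood at 1.15 CPM in control_SMPD1 and 5.25 in siSMPD1, and at 0 in control_GPR64 and 18.4 in siGPR64. It was 4.5-fold higher (2.86 to 7.64) in the SMPD1 pair and, at the floor of 3 counts, at least 17.9-fold higher in the GPR64 pair, where it went from 0 to 47 counts. FAIM2, an inhibitor of Fas-induced death found in neurons, stood at 0.573, 3.13, 0 and 6.27 CPM. FAIM2 was 5.26-fold higher (2.84 to 11.5) and, at the same floor, at least 6.1-fold higher. Both genes passed the rule in all 4 ratios. In the GPR64 pair both met the filter through siGPR64 alone, so these calls are no independent support. CEND1 and FAIM2 were 2 of 17 neural genes measured, whose medians were 0.12 and 0.78, and they entered that list with their earlier results known. Signs differed between the pairs for 9 of the 17; MAP2 was lower by the rule in the SMPD1 pair and SYP in the GPR64 pair. GAD2, which makes GABA from glutamate, stood at 0.885, 2.33, 0.343 and 3.92 CPM, and CNIH2, an auxiliary subunit of AMPA receptors, at 7.5, 19.2, 5.48 and 16.5 CPM. Both also passed the rule in all 4 ratios, GAD2 with 1 count in control_GPR64.

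**Figure D4:**
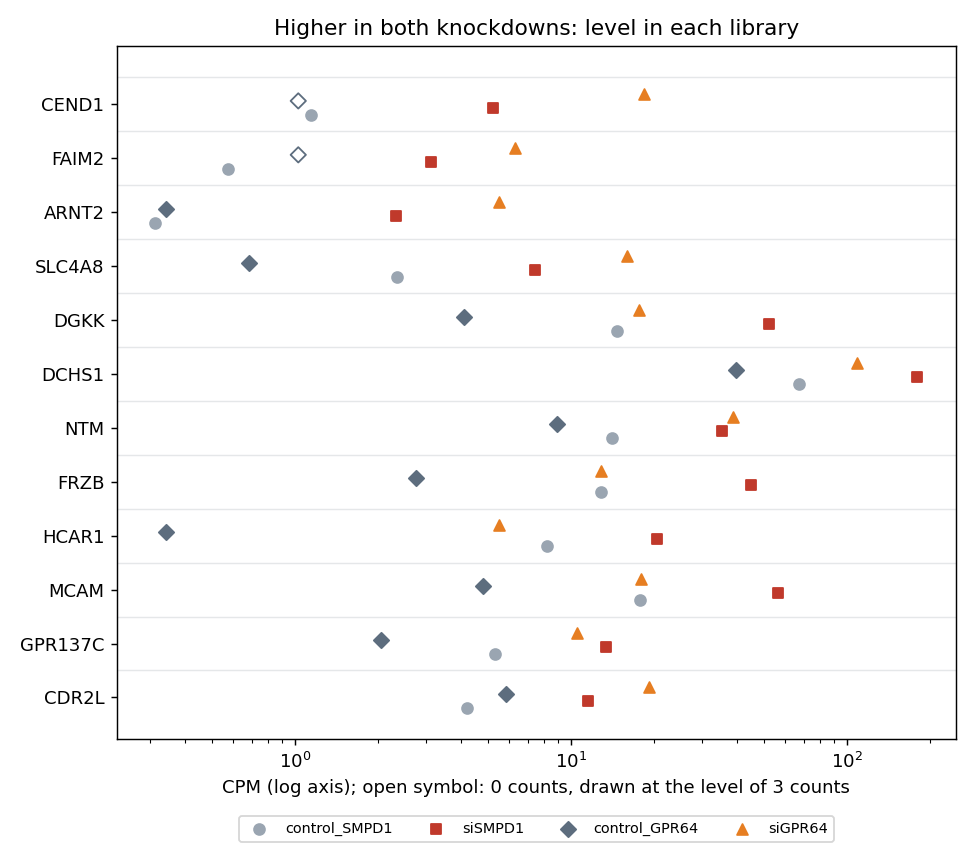
CPM of 12 genes higher in both knockdowns (log axis), 1 row per gene and 1 symbol per library: grey circle control_SMPD1, red square siSMPD1, dark diamond control_GPR64 and orange triangle siGPR64. The squares lie right of the circles and the triangles right of the diamonds in every row; open diamonds mark CEND1 and FAIM2 in control_GPR64, which had 0 counts and are drawn at the level of 3 counts.

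Other higher genes had mixed roles. ARNT2, a bHLH-PAS partner protein, stood at 0.312 CPM in control_SMPD1 and 2.33 in siSMPD1, and at 0.343 in control_GPR64 and 5.48 in siGPR64. Its folds were 6.96 (3.17 to 21.4) and 10.8 (2.44 to 677), the latter resting on 1 count in control_GPR64. SLC4A8, a sodium-driven bicarbonate exchanger, stood at 2.34, 7.42, 0.685 and 16.1 CPM, and its fold in the GPR64 pair, 18.7 (6.09 to 200), rested on 2 counts. ARNT2 and SLC4A8 passed the rule in all 4 ratios, and both met the filter in the GPR64 pair through siGPR64 alone. DGKK, a diacylglycerol kinase, stood at 14.7, 52.4, 4.11 and 17.6 CPM, with folds of 3.55 (3.11 to 4.07) and 4.15 (2.23 to 8.91). HCAR1, the lactate receptor, stood at 8.22, 20.5, 0.343 and 5.48 CPM. In HCAR1 siGPR64 lay below control_SMPD1, whereas in DGKK it lay just above. GPR137C stood at 5.31, 13.5, 2.06 and 10.6 CPM, CDR2L at 4.22, 11.6, 5.82 and 19.2 CPM, and the axonemal dynein DNAH9 at 4.16, 10.2, 0.343 and 3.92 CPM. The steroidogenic cholesterol carrier STAR (4.16, 8.8, 2.4 and 11.4 CPM) and the fatty acid-binding protein FABP3 (3.17, 7.58, 0 and 6.66 CPM) were past the rule in all 4 ratios.

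A fit across all genes gave no call for the shared response. In edgeR's quasi-likelihood test with pair as a block, 4 libraries left 1 residual degree of freedom. It holds how far the ratios of the 2 pairs disagree, which includes any response particular to 1 siRNA. The test pooled spread across genes (median prior of 9.67 degrees of freedom), so each p-value rests mainly on that pooled spread. Each standard error (SE) was worked back from the test statistic and shares this limit. Of 12386 genes, 0 (0%) had a Benjamini-Hochberg adjusted p under 0.05. At an unadjusted p under 0.05 there were 755 genes (6.1%), 422 higher (3.41%) and 333 lower (2.69%). The smallest adjusted p was 0.0703, for ATF5, with a log2 difference of -1.83 ± 0.221 (SE), lower in 2 of 2 pairs. For TRIB3 (-1.96 ± 0.307), PCK2 (-1.86 ± 0.309), CTH (-1.76 ± 0.287), ASNS (-1.23 ± 0.204) and DCHS1 (1.44 ± 0.223) the edgeR adjusted p was 0.206. For a single value, an exact two-sided permutation test of 2 against 2 libraries cannot go below 0.333. Without the pair as a block, edgeR again called 0 genes, with 229 at an unadjusted p under 0.05.

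DESeq2 with the same terms called 11 of 9984 genes given an adjusted p (0.11%). It used the same 4 libraries with 1 residual degree of freedom, and the normal reference of its default test makes no allowance for so few. For ATF5 the edgeR adjusted p was 0.0703, so the small DESeq2 values below share the limits given above. Lower in the knockdowns were ATF5 (adjusted p 1.32e-07), TRIB3 (3.12e-05), PCK2 (0.000569), CTH (0.00139), ASNS (0.00363), VGF (0.00528), GDF15 (0.0112), EGR1 (0.0365) and SLC7A1 (0.0378). Higher were DCHS1 (0.00363) and DGKK (0.0383). EGR1 and SLC7A1 fell short of 2-fold in the SMPD1 pair, and the other 9 genes were among the 86 shared ones. Of the 9 lower calls, 7 are on the ATF4 list, VGF and EGR1 being the others. That list holds 40 of the 12386 genes tested. It was written with earlier results of these data known, so the 7 are not independent evidence. EGR1, an immediate-early zinc finger factor, stood at 46.7 CPM in control_SMPD1 and 27.3 in siSMPD1, and at 410.0 in control_GPR64 and 87.4 in siGPR64, so the groups overlapped. Without control_SMPD1, edgeR on knockdown against control alone called 155 genes, and without any other single library it called 0.

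The remaining lists were read against medians of -0.01 and 0.02 for all genes tested. At least 0.25 above that median in both pairs lay 3 lists. The collagens and matrix genes had medians of 0.49 in the SMPD1 pair and 0.30 in the GPR64 pair over 36 measured, with 6 members higher in each pair (2.1% and 6.56% of all genes were), none higher in both and 22 above 0 in both (61.1%, against 27.1% of all genes). The integrins, receptors for that matrix, had 0.29 and 0.45 over 12 measured, and the adhesion G protein-coupled receptors, which include GPR64 itself, 0.41 and 0.28 over 15. Over members with a mean of at least 5 CPM, only the last of these 3 lists stayed above by that margin. The collagens and matrix genes then had 0.45 and 0.26, against -0.02 and 0.01 for all genes, at the edge of that margin. The integrins had 0.12 in the GPR64 pair. At least 0.25 below lay 3 lists as well, the ATF4 targets, the aminoacyl-tRNA synthetases and the NF-kB targets. Of 70 cytosolic ribosomal proteins measured, 48 were below 0 in both pairs (68.6%, against 26.6% of all genes) and none was past the rule. Their medians were -0.14 and -0.20. With the controls exchanged their medians were -0.77 and 0.40, so their direction turned for siGPR64. Heat shock genes (-0.15 and 0.69), interferon-stimulated genes (-0.27 and 0.38), NRF2 targets (-0.02 and 0.56) and histone genes (0.03 and 1.89) did not lie on 1 side by 0.25 in both pairs. Over the 3 histone genes that averaged at least 5 CPM in each pair, the medians were 0.42 and 1.96. EWS-FLI1 activated targets, the programme of the Ewing sarcoma fusion, had medians of -0.03 and -0.03 over 38 measured. G1/S genes (0.00 and 0.30), G2/M genes (0.01 and -0.12), RNA interference machinery (-0.00 and 0.20), sphingolipid metabolism (0.11 and -0.02) and lysosome genes (0.15 and 0.37) had no member past the rule in the same direction in both.

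**Figure D5:**
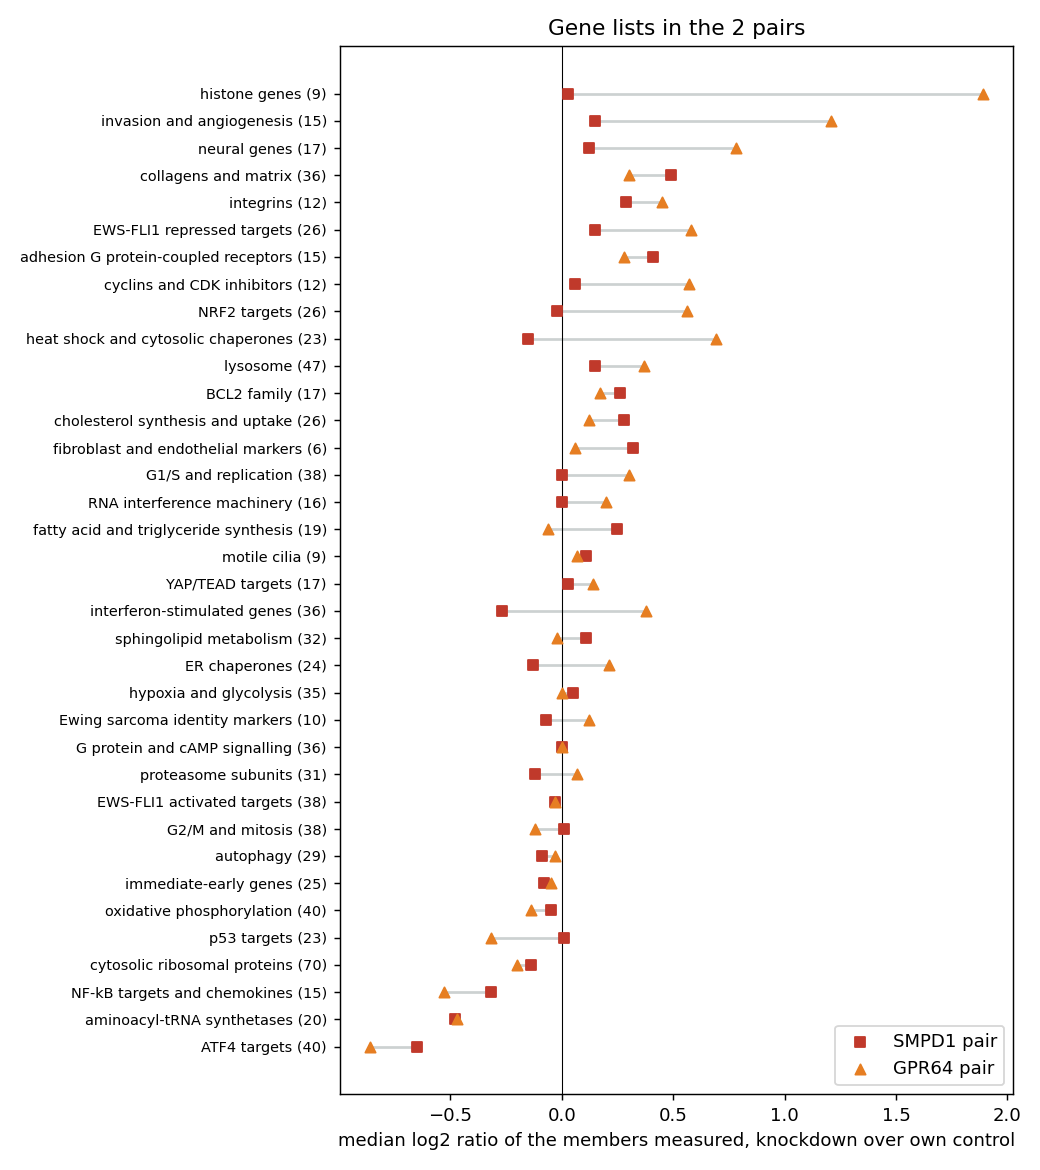
Median log2 ratio to the own control (x axis) of the members measured in each gene list (number in brackets), with red squares for the SMPD1 pair and orange triangles for the GPR64 pair. ATF4 targets lie lowest in both pairs (-0.65 and -0.86), while histone genes lie highest in the GPR64 pair (1.89) and near 0 in the SMPD1 pair (0.03).

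The 32 opposite genes show where the knockdowns parted. NOTCH3, a Notch receptor, stood at 26.6 CPM in control_SMPD1 and 69.6 in siSMPD1, and at 69.2 in control_GPR64 and 25.5 in siGPR64. It was 2.61-fold higher (2.36 to 2.9) in the SMPD1 pair and 2.71-fold lower (2.05 to 3.65) in the GPR64 pair. MAP1A, a microtubule-associated protein, stood at 369.6, 134, 113 and 413 CPM, 2.76-fold lower (2.63 to 2.89) and 3.66-fold higher (3.24 to 4.16). In NOTCH3 and MAP1A the knockdown of each pair stood near the control of the other. MEST, an imprinted gene, stood at 34.8, 11, 23.6 and 74 CPM, and CDKN1A, the cell cycle inhibitor p21, at 30.7, 62.8, 129 and 43.9 CPM. For an opposite gene the knockdown and control levels overlap by the rule itself. In none of them was the unadjusted p of the paired edgeR fit under 0.05. This too follows in large part from the rule, because ratios of opposite sign cancel in a shared difference.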

How the data were processed

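The deposited files hold raw counts per gene symbol, as whole numbers that the authors did not normalize. Tools named in the submitters' processing notes are HTSeq, TopHat2, SAMtools and bcl2fastq, with the build hg19. The sources used here do not give the annotation, strand setting or counting mode, so reads of overlapping or antisense genes cannot be told apart. Each file lists 23228 symbols and 5 HTSeq summary lines (44.8%, 44.1%, 37.6% and 36.5% of entries in control_SMPD1, siSMPD1, control_GPR64 and siGPR64), which were left out. Libraries were scaled with TMM factors (edgeR 4.0.16, R 4.3.3). Genes averaging at least 1 CPM in each pair were tested (12386). Log2 ratios used a prior of 0.5 count, and each 95% interval is exact Clopper-Pearson. The main test was edgeR's quasi-likelihood test on pair and side, and DESeq2 1.42.0 an alternative. Scripts were tested on simulated data. The pairing comes from the titles, and deviations of libraries of 1 pair from the side means had r = 0.41 across genes.

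The 39 gene lists, the genes and the tests were chosen with earlier results of these data known. The naming rule took both targets, the 12 genes higher and the 12 lower in both knockdowns with the counting bound furthest from equality, up to 4 shared genes per list, 4 opposite genes per direction, the 3 smallest p-values per direction, PGF and MMP1. Other genes were picked after their values were seen. Alternatives were RLE factors, library totals, 2 other filters, 1.5-fold and 3-fold limits, a prior of 2, crossed controls and left-out libraries. A count of 0 set to 3 and the single-control counts were added after seeing the data.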

Additional observations from a re-analysis of the deposited data

Results flagged for a closer look

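The genes below differed in direction between the pairs, each with 1 library a side. The difference between the pairs is given as the log2 ratio of the GPR64 pair minus that of the SMPD1 pair, and it was not tested. The targets come first, with 4.31 for SMPD1 (from -2.17 to 2.13) and -1.59 for GPR64 (from 0.48 to -1.11).

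Higher in the SMPD1 pair and lower in the GPR64 pair were NOTCH3, with a difference of -2.82, CDKN1A with -2.59, C1orf183 with -5.41 and APOL4 with -5.80. The last 2 rest on 3 counts and 1 count in siGPR64. Lower in the SMPD1 pair and higher in the GPR64 pair were MAP1A, with a difference of 3.34, MEST with 3.29 and PTPRJ with 2.71, a receptor-type tyrosine phosphatase. For MMP1 the difference was 2.70, from -0.14 to 2.56.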

How the results depend on the processing

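The paired edgeR fit called 0 genes with RLE factors, with library totals, with a filter of 5 CPM and with no replicate block (229 genes at an unadjusted p under 0.05, against 755 with the block). It called 107 with no filter (17237 genes), and DESeq2 called 11. Leaving out 1 library at a time gave 0 to 155 calls, the 155 without control_SMPD1, and the cause was not tested. A lone control or knockdown is then assumed to vary like the other side.

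Counts of genes higher, lower, opposite and past all 4 ratios (43, 43, 32 and 27) came to 23, 21, 11 and 14 with a mean of at least 5 CPM, to 185, 145, 157 and 118 at 1.5-fold and to 11, 4, 8 and 6 at 3-fold, as fewer genes or another limit imply. Crossed controls gave 438 opposite genes. Leaving out either control, with both knockdowns set against the other control, gave 78 to 503 higher, 25 to 271 lower and 10 to 18 opposite genes, from ratios that share that control. Without a knockdown library no shared count exists. RLE factors left 43 of 43 higher and 43 of 43 lower genes called, and library totals 43 and 39. Lists above all genes in both pairs fell from 3 to 1 with a mean of at least 5 CPM (adhesion G protein-coupled receptors). At that mean the histone median in the SMPD1 pair was 0.42 over 3 genes (0.03 over 9 before), and the medians of the invasion (-0.14) and neural (-0.03) lists in the SMPD1 pair, and of the motile cilia list in both (-0.40 and -0.27), turned below 0. No named gene changed direction with RLE factors, library totals or a prior of 2 counts. In the GPR64 pair 1 count is worth more CPM, which limits the low genes.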
